A study of Mus musculus with 8 samples.

Results

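The potassium channel subunits on the array were taken as every probe set whose only gene symbol in the platform annotation begins with Kcn, followed by further letters and a number, without Kcnj13. This gave 90 probe sets of 62 genes, out of 22626 tested probe sets and 12393 genes with a symbol of their own. Of the 62 genes, 42 had 1 probe set and 20 had several, and a gene's value is the mean of its probe sets. Subunits with no such probe set were not analysed here. The whole brains came from C57/B6 males that were 3 months old, and their RNA was read on Affymetrix Mouse430A_2 arrays with 1 channel. BSKO stands for a brain-specific knockout of the deacetylase SIRT1 and WT for wild-type littermates, with 4 biological replicates, each on its own array, per genotype. The promoter that drove the deletion, the cells it reached and the deleted part of Sirt1 are not stated by the labels. The comparison asks how the loss of SIRT1 changes brain gene expression. Each deposited log2 value is relative to the median of its probe set over the arrays, which leaves differences between arrays but takes away the level. For the same reason the presence of brain cell markers could not be checked, and no gene can be said to be expressed more than another.

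Potassium channels let potassium leave a neuron, which sets its resting potential, ends action potentials and limits how often it fires. Voltage-gated channels are built from pore subunits (Kcna to Kcnd, Kcnh, Kcnq) with modifier and auxiliary subunits that change their gating and transport. Inward rectifiers (Kcnj) and tandem-pore leak channels (Kcnk) act near rest and are often set by G proteins or ATP, while Kcnn channels and the large-conductance channel formed by Kcnma1 and its Kcnmb subunits open when calcium rises. Many of these subunits are used by some brain regions and cell types and not by others.

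The BSKO 2 array stood apart from the other 7. Over the 22626 probe sets its values had an SD of 0.831, against 0.15 to 0.314 on the others. There the control probe sets of beta-actin differed by -2.44 between the 5' and the 3' end, against -0.104 to 0.489 elsewhere, a measure that tracks RNA quality and labelling. Of the 90 channel probe sets, 28 had their highest and 30 their lowest value on BSKO 2, in all 64.4% against 75.2% of all probe sets. Of them, 18 (20%) lay more than 1 log2 unit from the mean of the other arrays, close to the 19.7% of all probe sets. Each comparison is therefore given with 8 arrays and without BSKO 2. Sirt1 itself had 0.00, 0.00, 0.08 and 0.29 in WT 1 to 4 and 0.08, -1.46, -0.20 and -0.06 in BSKO 1 to 4. BSKO 1 lay among the WT arrays, and the difference was -0.50 (SE 0.31, limma adjusted p = 0.549) with 8 arrays and -0.15 (adjusted p = 0.428) without BSKO 2. It is not given whether its probe set lies in the deleted part, so its values do not check the genotype labels. The number of arrays limits the precision.

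With all 8 arrays, no potassium channel gene passed the test between genotypes. By limma with Benjamini-Hochberg adjustment over the whole table, 0 of 90 probe sets and 0 of 62 gene means had an adjusted p under 0.05, against 0.0309% of all probe sets and 0.0726% of all genes. At an unadjusted p under 0.05 there were 11 probe sets (12.2%) and 9 genes (14.5%), where all probe sets gave 10.8% and all genes 12.2%. Of the 9 genes, 7 differed upward, or 11.3% of the 62 against 6.3% of all genes, and 2 downward, or 3.23% against 5.85%. The 62 genes had a median difference of 0.04 (BSKO minus WT, log2), beside 0.03 over all genes. Of them, 37 (59.7%) differed upward and 25 downward, where all genes gave 54.8% and 45.2%, and the size of the difference had a median of 0.19, beside 0.17 over all genes.

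Without BSKO 2, 3 genes fell in BSKO and none rose: the calcium-activated channel subunit Kcnmb2, the auxiliary subunit Kcne4 and the G protein-gated inward rectifier Kcnj3. These are 4.84% of the 62 genes, against 1.39% of all genes called as lower, 0.758% called as higher and 2.15% called in either direction. Among probe sets 2 of 90 passed, 1 of Kcnmb2 and that of Kcne4, or 2.22% against 1.63% of all probe sets, 1.14% as lower. At an unadjusted p under 0.05 there were 19 genes (30.6%), against 21.2% of all genes read in the same way, of which 14 differed upward, or 22.6% of the 62 against 10.9%, and 5 downward, or 8.06% against 10.3%. The sign was upward for 38 of the 62 genes and downward for 24, beside 53.6% and 46.4% of all genes.

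**Figure D1:**
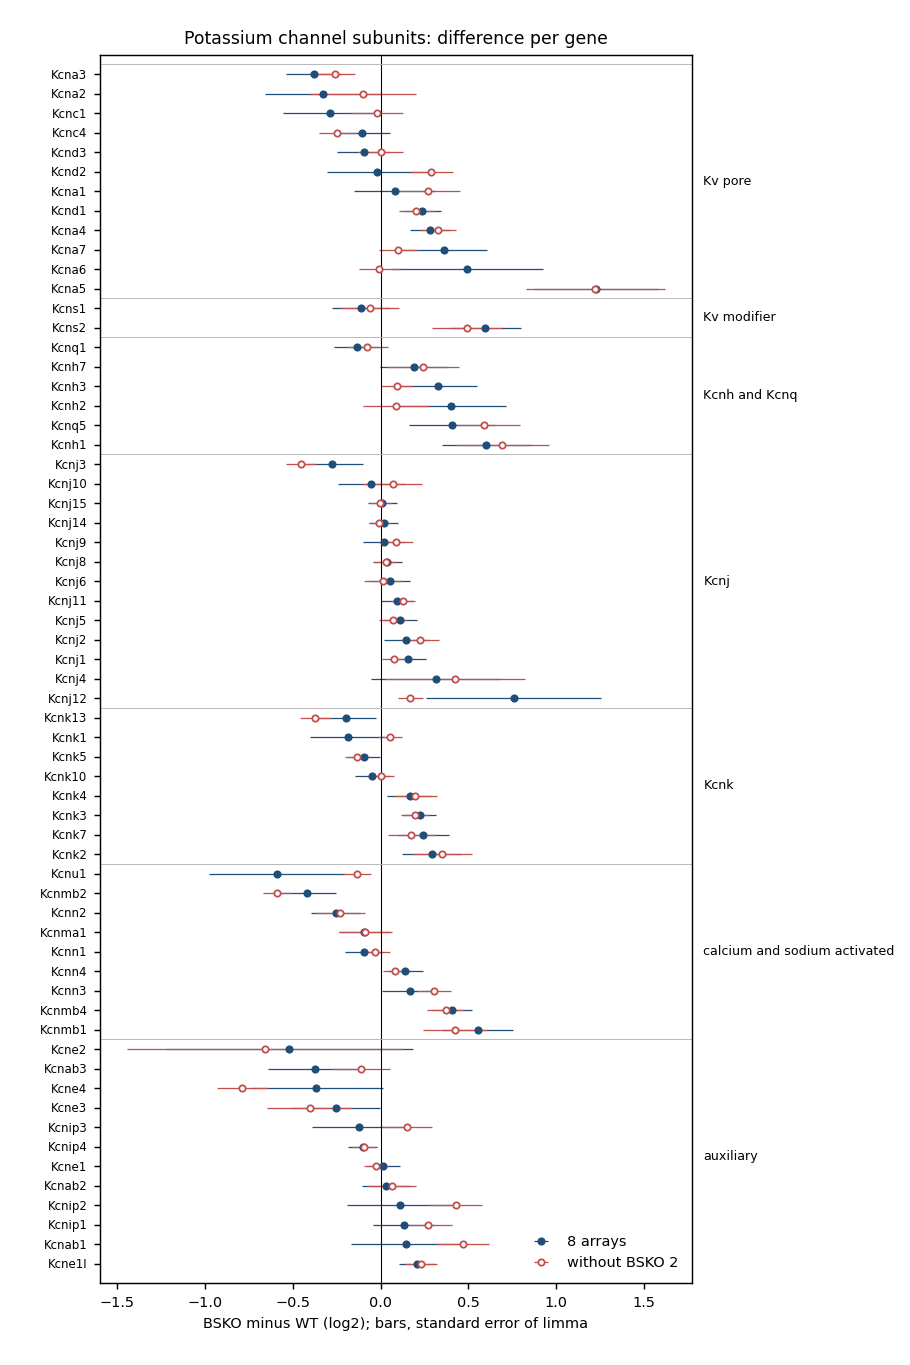
Difference of each of the 62 potassium channel genes between BSKO and WT on the log2 scale, by subfamily, with 8 arrays (filled circles) and without BSKO 2 (open circles), and bars for the standard error of limma. Most genes lie within 0.5 of 0, Kcna5 lies at 1.23 and 1.22, and Kcne4, Kcnmb2 and Kcnj3 move further below 0 when BSKO 2 is left out.

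The bases before the start of these 3 genes are shown because the genes were called without BSKO 2. Whether they are controlled together was not tested. Given are 250 bases of each on the gene's own strand from RefSeq (assembly GRCm38.p6), at chr3:31902453-31902702 (plus strand) for Kcnmb2, chr1:78816661-78816910 (plus) for Kcne4 and chr2:55435720-55435969 (plus) for Kcnj3. Capitals mark the matches to the motifs searched.
Kcnmb2: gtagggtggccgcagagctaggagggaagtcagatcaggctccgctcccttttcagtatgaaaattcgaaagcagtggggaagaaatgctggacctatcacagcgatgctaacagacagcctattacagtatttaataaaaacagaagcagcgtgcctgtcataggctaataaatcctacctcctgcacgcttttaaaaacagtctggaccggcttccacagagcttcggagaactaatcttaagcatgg
Kcne4: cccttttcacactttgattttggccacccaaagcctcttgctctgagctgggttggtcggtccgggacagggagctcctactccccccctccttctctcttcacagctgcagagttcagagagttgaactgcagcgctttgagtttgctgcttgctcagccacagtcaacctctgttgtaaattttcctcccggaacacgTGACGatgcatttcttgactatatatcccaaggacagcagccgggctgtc
Kcnj3: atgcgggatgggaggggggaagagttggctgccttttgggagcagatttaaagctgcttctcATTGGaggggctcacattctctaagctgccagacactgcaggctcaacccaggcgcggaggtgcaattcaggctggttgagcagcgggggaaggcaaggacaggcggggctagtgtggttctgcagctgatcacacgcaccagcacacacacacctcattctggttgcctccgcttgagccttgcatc
The motifs, read on both strands, were the cyclic AMP response element TGACGTCA, its core TGACG (which the full element contains), the GC box GGGCGG, the CCAAT box CCAAT, the TATA box TATAAA and the forkhead site GTAAACA. Kcne4 held the core TGACG from base -50 relative to the start, and Kcnj3 held the CCAAT box on the opposite strand from base -188, while these letters were not found in the window of Kcnmb2. Among 32851 windows of the same length the core was in 17.8% and the CCAAT box in 33.8%. For 50 of the 62 channel genes there were 68 windows, of which 14.7% held the core, 27.9% the CCAAT box, 45.6% the GC box (32.7% of all windows), 1.47% the TATA box (12.4%), and 0% the full response element (1.55%) or the forkhead site (3.17%). The bases G and C made up a median of 58.8% of the channel windows, against 52.4% over all windows. The part of this base content in the motif shares was not tested. The 3 genes share none of the motifs, and a match is a description of letters and not a site in use.

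Kcnmb2 encodes a beta subunit that makes the large-conductance calcium-activated channel inactivate. Its gene mean was 0.02, 0.08, 0.09 and 0.19 on WT 1 to 4 and -0.64, 0.17, -0.45 and -0.40 on BSKO 1 to 4. BSKO 1, 3 and 4 lay below every WT array and BSKO 2 lay among them. The mean was 0.09 ± 0.07 (SD, n = 4) in WT and -0.50 ± 0.13 (n = 3) in the other 3 BSKO arrays. They differed by -0.59 (SE 0.08), which is 1.5-fold lower (limma adjusted p = 0.0209). With all 8 arrays the difference was -0.42 (SE 0.17, adjusted p = 0.385). Both of its probe sets ran the same way without BSKO 2, 1431844_at with -0.81 (adjusted p = 0.0251) and 1426322_a_at with -0.36, which did not pass (adjusted p = 0.0789).

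Kcne4 encodes a single-pass membrane protein that damps voltage-gated channels. It stood at 0.18, 0.04, 0.05 and -0.04 on WT 1 to 4 and at -0.52, 0.96, -1.12 and -0.55 on BSKO 1 to 4. Again BSKO 1, 3 and 4 were below every WT array, while BSKO 2 was above all of them. The difference without BSKO 2 was -0.79 (SE 0.15, limma adjusted p = 0.0419), from 0.06 ± 0.09 (n = 4) to -0.73 ± 0.34 (n = 3), or 1.73-fold lower. With 8 arrays it was -0.37 (SE 0.38, adjusted p = 0.656).

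Kcnj3 encodes the subunit that pairs with Kcnj6 or Kcnj9 in the channels through which many neurotransmitter receptors hyperpolarise neurons. Its values were 0.06, 0.28, 0.00 and 0.00 on WT 1 to 4 and -0.32, 0.34, -0.35 and -0.44 on BSKO 1 to 4. As with Kcne4, only BSKO 2 was above the WT arrays and the other 3 BSKO arrays were below them. The difference was -0.45 (SE 0.09, limma adjusted p = 0.0431) without BSKO 2, or 1.37-fold lower, and -0.28 (SE 0.18, adjusted p = 0.517) with it. On the probe set table the same Kcnj3 difference had a slightly larger limma SE (0.0885 against 0.0858) and did not pass (adjusted p = 0.0515).

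The 3 calls also depended on the other arrays and, for Kcnj3, on the scaling. After quantile normalization Kcnj3 did not pass (-0.41, limma adjusted p = 0.0652), while Kcne4 and Kcnmb2 did. When WT 1, WT 2, WT 3 or WT 4 was left out as well, 0 channel genes passed. Without BSKO 3 only Kcne4 passed, and without BSKO 4 only Kcnmb2. Without BSKO 1 there were 8, the same 3 as lower and Kcna4, Kcnab1, Kcnd2, Kcnip3 and Kcnq5 as higher. In these fits the difference stayed between -0.89 and -0.59 for Kcne4, -0.48 and -0.39 for Kcnj3 and -0.64 and -0.52 for Kcnmb2. Within replicates 3 and 4, the difference was -0.84 for Kcne4, -0.39 for Kcnj3 and -0.56 for Kcnmb2. BSKO 1 lay -0.63, -0.49 and -0.69 from the mean of WT 1 and WT 2. Marker lists of other cells were low in BSKO as well. The 7 measured markers of meninges and fibroblasts, of 7 listed, had a median value of 0.16 to 0.80 on the WT arrays and -0.49 to -0.22 on the BSKO arrays, and all 7 differed downward, of which 0 passed with 8 arrays and 2 without BSKO 2, the proteoglycan genes Ogn (-1.39, limma adjusted p = 0.0300) and Lum (-0.85, adjusted p = 0.0455). The 5 measured markers of dentate granule neurons, of 6 listed, had 0.01 to 0.77 and -0.35 to -0.08, and all 5 differed downward with 0 called in either fit. In both lists WT 1 and WT 2 were the highest. On WT 1 to 4 the medians were 0.75, 0.80, 0.16 and 0.19 for meninges and 0.72, 0.77, 0.04 and 0.01 for dentate neurons. On BSKO 2 the median of each list was below its medians on the WT arrays, and the 3 channel genes were not below WT. Within the lists, Col3a1 (0.93), Dsp (0.75) and Tdo2 (0.33) were not below WT on BSKO 2 either, and the other members were. BSKO 2 is the array that stood apart from the others, so these values are a description of that array only. In centred values no marker can be read as absent, fewer cells of a type and less RNA per cell cannot be told apart in whole brain, and the part of these markers in the result was not tested.

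**Figure D2:**
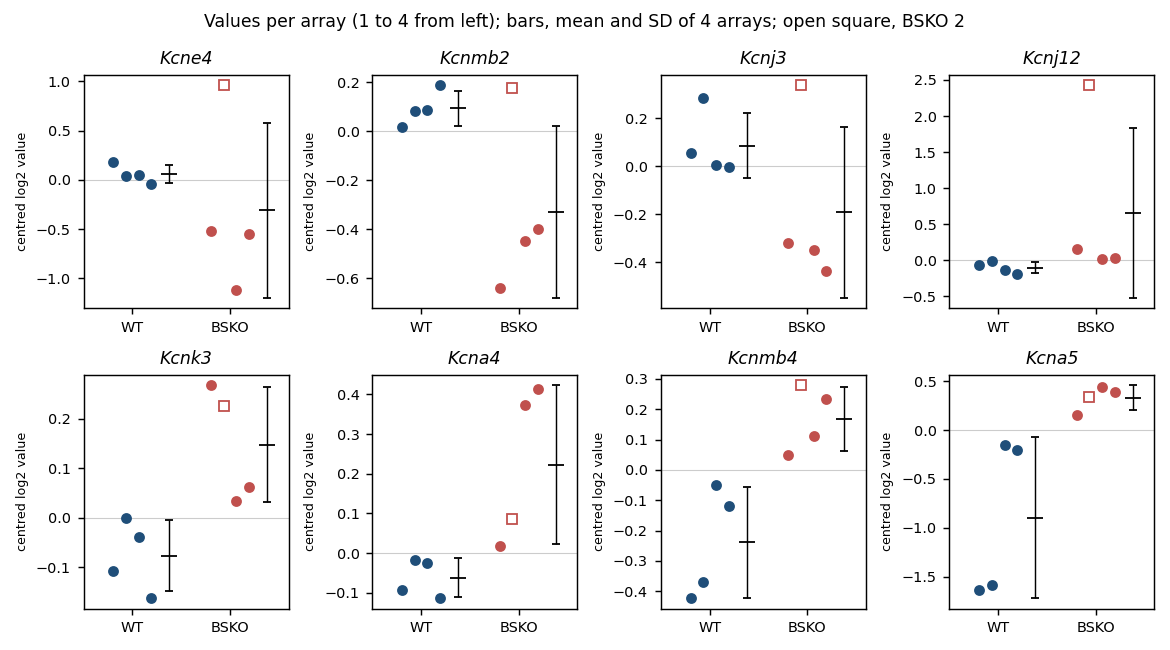
Centred log2 value of 8 genes on each array, the 3 called without BSKO 2 and the 5 whose genotypes did not overlap on 8 arrays, with the mean and SD of 4 arrays as bars and BSKO 2 as an open square. For Kcne4, Kcnmb2 and Kcnj3 the open square lies apart from the other BSKO arrays, and for Kcnj12 it alone reaches 2.43.

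On 8 arrays the genotypes did not overlap for 5 of the 62 genes (8.06%), against 13.2% of all genes. All 5, Kcna4, Kcna5, Kcnj12, Kcnk3 and Kcnmb4, were higher in BSKO, where the background for that direction is 6.4%, and 0 were lower (6.85%). None of them passed the test. Without BSKO 2 there were 12 such genes (19.4%), against 20.5% of all genes, with 6 in each direction (10.2% of all genes each).

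Among the pore subunits of voltage-gated channels, 6 of 12 genes differed upward and 6 downward, with 0 called in either fit and differences from -0.38 to 1.23 on 8 arrays. Kcna5, a delayed rectifier subunit of the Shaker group, had the largest difference of all 62 genes. Its values were -1.64, -1.58, -0.16 and -0.21 for the WT arrays in order and 0.16, 0.34, 0.44 and 0.39 for the BSKO arrays. The BSKO arrays lay close together above all WT arrays, and WT 1 and WT 2 lay more than 1 log2 unit below WT 3 and WT 4. The difference was 1.23 (SE 0.36), or 2.34-fold higher, and did not pass with 8 arrays (limma adjusted p = 0.256) or without BSKO 2 (1.22, adjusted p = 0.145). Replicates 1 and 2 alone gave 1.86, and replicates 3 and 4 alone 0.60. With that split as a term and BSKO 2 left out, Kcna5 did pass (1.06, adjusted p = 0.0451), where its adjusted p otherwise ran up to 0.292 over the alternatives of that fit.

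Kcna4, the A-type member of the Shaker group, was -0.09, -0.02, -0.02 and -0.11 on the WT arrays and 0.02, 0.09, 0.37 and 0.41 on the BSKO arrays. The highest were BSKO 3 and BSKO 4, and BSKO 1 was close to WT 2. The difference was 0.28 (SE 0.11, limma adjusted p = 0.387) and did not pass. Kcna3, another delayed rectifier subunit, was the lowest of the group with -0.38 (SE 0.16, adjusted p = 0.393), and the genotypes overlapped. Kcna2, which axons use near their nodes, had 0.39, 0.30, -0.17 and -0.07 in WT 1 to 4 and -0.71, -0.89, 0.67 and 0.07 in BSKO 1 to 4, a difference of -0.33. For Kcna2 the sign thus changed within replicates, -1.15 within 1 and 2 and 0.50 within 3 and 4. The difference of 0.49 for Kcna6 rested on BSKO 2 (1.99) and was -0.01 without it. The modifier subunits, which are silent on their own, had 2 measured genes. Kcns2 differed by 0.60 (SE 0.20, adjusted p = 0.326) and Kcns1 by -0.11.

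Of the 6 Kcnh and Kcnq genes, 5 differed upward in both fits, with a median of 0.37 with 8 arrays and 0.17 without BSKO 2, and 0 were called. Kcnh1, an ether-a-go-go channel, had -0.60, -0.60, 0.04 and -0.07 in WT 1 to 4 and -0.02, 0.02, 0.99 and 0.20 in BSKO 1 to 4. BSKO 1 and BSKO 2 lay level with WT 3 and WT 4, so the genotypes overlapped (difference 0.60, SE 0.25, limma adjusted p = 0.407). Kcnq5, a subunit of the M-current that restrains repetitive firing, was 0.79 and 0.81 on BSKO 3 and BSKO 4 and between -0.29 and 0.03 on the other 6 arrays (difference 0.41, adjusted p = 0.499). Only these 2 arrays were high, and the difference within replicates 3 and 4 was 0.79 against 0.03 within 1 and 2. The other member of that group, Kcnq1, differed by -0.14.

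Of the 13 inward rectifier genes, 11 differed upward with 8 arrays, with a median of 0.05, and 0 were called. Kcnj12, a strong inward rectifier, had -0.06, -0.02, -0.13 and -0.20 on the WT arrays and 0.16, 2.43, 0.02 and 0.04 on the BSKO arrays. The genotypes did not overlap, but the difference fell from 0.76 to 0.17 when BSKO 2 was left out (limma adjusted p = 0.525 and 0.218). Kcnj4, also a strong rectifier and one of forebrain neurons, had -0.83, -0.73, 0.45 and 0.23 in WT 1 to 4 and -0.54, -0.23, 0.50 and 0.64 in BSKO 1 to 4. Replicates 3 and 4 were high in both genotypes. Its difference of 0.32 (SE 0.37) was smaller in size than the gap of -1.12 between WT 1 and 2 and WT 3 and 4. Kcnj10, the astrocyte channel that takes up potassium, differed by -0.05, and ran from -0.40 to 0.38 over the BSKO arrays. Kcnj6 and Kcnj9, the partners of Kcnj3, differed by 0.05 and 0.02 as gene means, and without BSKO 2 by 0.01 and 0.09, which were not called.

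Of the 8 tandem-pore genes, 4 differed upward and 4 downward with 8 arrays, and 0 were called. Kcnk3, an acid-sensitive leak channel, had -0.11, 0.00, -0.04 and -0.16 on WT 1 to 4 and 0.27, 0.22, 0.03 and 0.06 on BSKO 1 to 4. The genotypes did not overlap, with the nearest arrays at 0.00 and 0.03, and the difference was 0.22 (SE 0.09, limma adjusted p = 0.405). Kcnk2, a mechanosensitive leak channel, differed by 0.29 (adjusted p = 0.481), and WT 1 and WT 2 (-0.41 and -0.45) were lower than WT 3 and WT 4 (both 0.07). Kcnk7 differed by 0.24 and Kcnk1 by -0.19. Kcnk1 was 0.05 without BSKO 2, so its sign turned with that array. Kcnk13, a leak channel found in microglia, was 0.07, 0.00, 0.00 and 0.15 on the WT arrays and -0.26, 0.38, -0.49 and -0.19 on the BSKO arrays. BSKO 2 was again above and the other BSKO arrays below every WT array, as for Kcne4 and Kcnj3. Its difference without BSKO 2 was -0.37 (SE 0.09) and did not pass (adjusted p = 0.0712). The 7 microglial markers measured had a median between -0.09 and 0.11 on the WT arrays and between -0.18 and 0.27 on the BSKO arrays, and 3 of them differed upward and 4 downward, with 0 called.

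The group drawn as calcium and sodium activated channels held Kcnn, Kcnm and Kcnu genes and no Kcnt gene. Of its 9 genes, 4 differed upward and 5 downward with 8 arrays. Beside Kcnmb2, the beta subunits Kcnmb1 and Kcnmb4 differed upward. Kcnmb4, the beta subunit typical of neurons, stood at -0.42, -0.37, -0.05 and -0.12 on WT 1 to 4 and at 0.05, 0.28, 0.11 and 0.23 on BSKO 1 to 4. The genotypes did not overlap and the difference was 0.41 (SE 0.12), or 1.33-fold higher, the smallest p of the 62 genes with 8 arrays, though not past the threshold (limma adjusted p = 0.252, and 0.118 without BSKO 2). It was 0.56 within replicates 1 and 2 and 0.26 within 3 and 4. With that split as a term and BSKO 2 left out it passed (0.33, adjusted p = 0.0482). In that fit 7 channel genes passed, Kcna5, Kcnab1, Kcnip2 and Kcnmb4 as higher and Kcne4, Kcnj3 and Kcnmb2 as lower. Kcnmb1, the beta subunit of smooth muscle, was -0.22 to -0.06 on the WT arrays and 0.76, 0.80, 0.22 and -0.11 on BSKO 1 to 4, a difference of 0.55 (SE 0.20, adjusted p = 0.356). BSKO 1 and BSKO 2 were high and BSKO 4 lay among the WT arrays. Kcnma1, the pore of this channel, differed by -0.09 in both fits. Kcnu1, a sperm channel, differed by -0.59, and by -0.13 without BSKO 2, where it had stood at -1.88.

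Of the 12 auxiliary genes, 6 differed upward and 6 downward, and Kcne4 alone was called, without BSKO 2. Kcne2, which has the choroid plexus as its main site in the brain, was -3.03 on BSKO 4 and between -0.22 and 0.67 on the other 7 arrays. Its difference of -0.52 (SE 0.71, limma adjusted p = 0.727) rested on that array. The 5 measured markers of the choroid plexus, of 7 listed, had a median of -1.82 on BSKO 4 and -0.21 to 0.68 on the other 7 arrays, and each of Ttr, Folr1, Kl, Aqp1 and Otx2 was at its lowest on BSKO 4. The part of this cell type in the values of Kcne2 was not tested. Kcne1l differed by 0.21 (adjusted p = 0.446). Kcnab1 and Kcnab3, cytosolic beta subunits of Shaker channels, differed by 0.14 and -0.37, and BSKO 2 lay lowest for both with -0.95 and -1.05. Without it they differed by 0.47 (adjusted p = 0.135) and -0.11.

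Kcnip proteins bind calcium and carry Kcnd channels to the surface. On BSKO 1, all 4 probe sets of Kcnip1 were high, with 0.56, 0.62, 0.72 and 0.54. On the other 7 arrays 3 of them stayed at or below 0.20, and the remaining one, 1433156_at, was 0.63 on BSKO 3 as well. As a gene mean Kcnip1 was 0.61 on BSKO 1 and between -0.29 and 0.17 elsewhere, with a difference of 0.13 (SE 0.18, limma adjusted p = 0.723). The 7 interneuron markers, which include cells known to use Kcnip1, had a median of -0.12 on BSKO 1 and -0.45 to 0.15 on the others, with 2 upward, 5 downward and 0 called on 8 arrays.

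**Figure D3:**
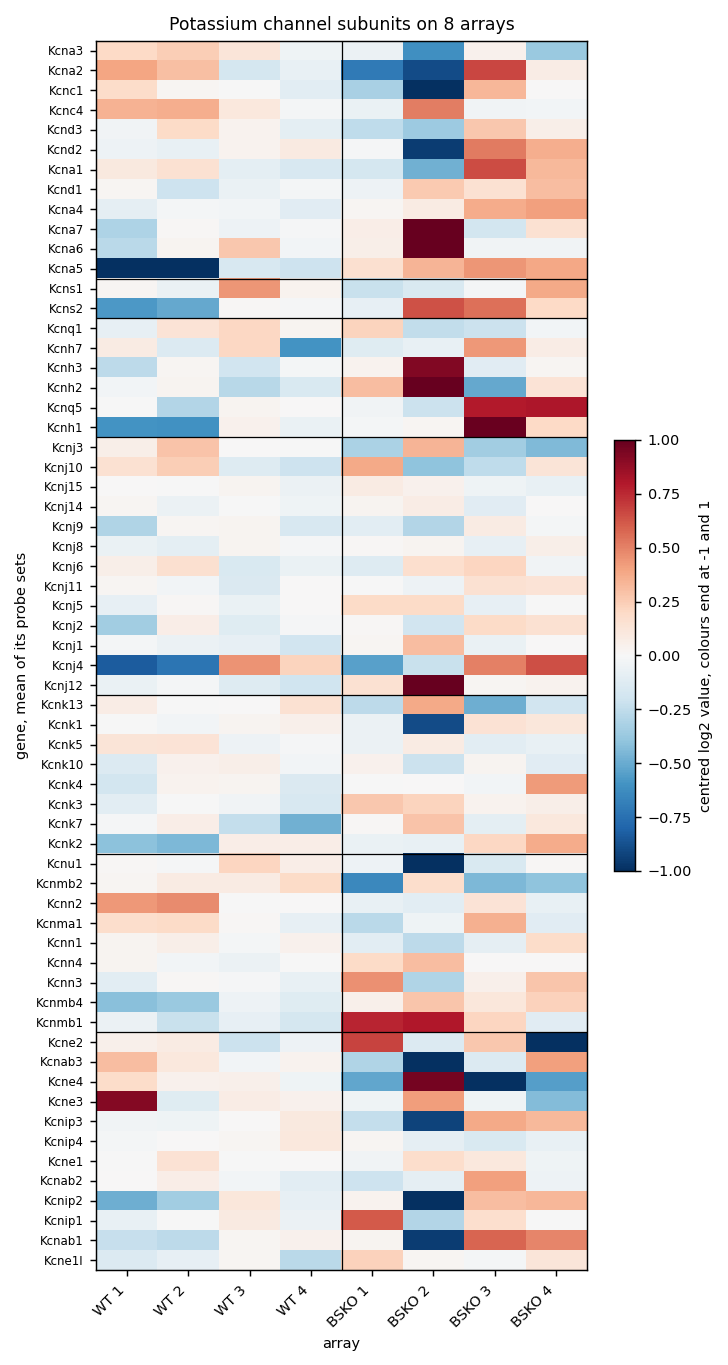
Centred log2 values of the 62 potassium channel genes (rows, by subfamily) on the 8 arrays (columns), with colours that end at -1 and 1. BSKO 2 holds many of the deepest colours in both directions, and WT 1 and WT 2 share low values of Kcna5, Kcnj4, Kcnh1 and Kcns2.

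Several channel genes separated replicates 1 and 2 from 3 and 4 within a genotype. Among WT arrays, 8 of the 62 genes (12.9%) had no overlap between these pairs and a gap over 0.4, against 5.26% of all genes. Of the 8, 6 were lower on WT 1 and WT 2, where all genes gave 303 lower and 349 higher of 652. The other 2, Kcna2 (0.47) and Kcnn2 (0.45), were higher there. The gaps of the 6 lower genes were -1.43 for Kcna5, -1.12 for Kcnj4, -0.59 for Kcnh1, -0.54 for Kcns2, -0.49 for Kcnk2 and -0.43 for Kcnip2. Among BSKO arrays, where the first of these pairs holds BSKO 2, 20 genes (32.3%) met the same rule, against 22.2% of all genes. Of the 20, 13 were lower and 7 higher on BSKO 1 and BSKO 2, beside 1245 and 1512 among all genes. Kcnj4 (-0.96), Kcnh1 (-0.59) and Kcnip2 (-0.82) met the rule in the same direction as in WT, and Kcna2 (-1.17) in the opposite one. Kcna5 (-0.17), Kcnk2 (-0.36), Kcns2 (-0.10) and Kcnn2 (-0.12) did not meet it in BSKO. The genes with a gap were picked out after their values were seen. The 8 measured markers of striatal projection neurons, of 12 listed, had a median of -1.79, -1.70, 0.01 and -0.08 in WT 1 to 4 and 0.05, 0.15, 1.12 and 0.92 in BSKO 1 to 4. WT 1 and WT 2 were thus low for the striatal markers. The 6 channel genes were picked because they were lower on these arrays, and Kcna2 and Kcnn2 because they were higher. Their likeness or unlikeness to the markers in WT was therefore set by that choice and is no test. All 8 striatal markers differed upward, by a median of 1.57, and 0 passed in either fit. Their part in the differences of Kcna5, Kcnmb4, Kcns2 and Kcnh1 was not tested.

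**Figure D4:**
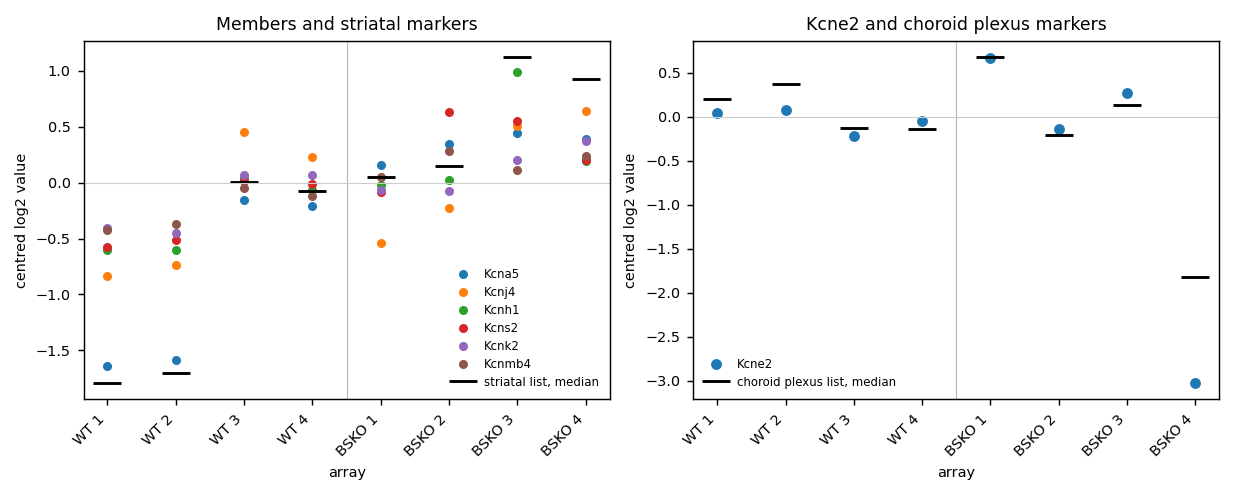
Centred log2 values on each array of Kcna5, Kcnj4, Kcnh1, Kcns2, Kcnk2 and Kcnmb4 beside the median of the striatal marker list (left). Kcne2 is drawn beside the median of the choroid plexus list (right). Kcnmb4 did not meet the rule for a gap in WT, and Kcnip2, which did, is not drawn. On the left WT 1 and WT 2 hold the lowest values of Kcna5 (-1.64 and -1.58) and of the marker list, and on the right BSKO 4 holds the lowest value of both (-3.03 and -1.82).

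For 5 of the 20 genes with several probe sets, Kcnd2, Kcnip1, Kcnip2, Kcnj6 and Kcnj9, the probe sets differed from each other by more than 0.5 in the difference between genotypes. Kcnip2 was -2.60 there on 1425870_a_at and 0.51 on 1421783_a_at, and their differences with 8 arrays were -0.15 and 0.38. Kcnd2, the A-type channel of dendrites, was -1.29 and -1.17 on BSKO 2 by 1450773_at and 1422835_at and -0.39 by 1422834_at. That last probe set was also 1.28 and 0.73 on BSKO 3 and BSKO 4, where the others reached at most 0.28, so the 3 gave differences of 0.45, -0.23 and -0.28. Kcnj6 ran from -0.75 on 1450294_a_at to 1.14 on 1425707_a_at on that array, with differences from -0.31 to 0.25 over its 5 probe sets. Kcnj9 was -1.07 on 1450712_at and 0.03 and 0.16 on its other probe sets there, with differences of -0.25, 0.04 and 0.27. For Kcnip1 the differences ran from -0.12 to 0.42. The gene mean therefore averages probe sets that did not follow each other on BSKO 2, and for Kcnd2 and Kcnip1 not without it either. Without BSKO 2, Kcnd2 gave 0.73 on 1422834_at and 0.02 and 0.12 on the others. Kcnip1 then gave 0.56 on 1433156_at and 0.12 to 0.27 on the others. The 3 probe sets of Kcnk3 gave 0.19 to 0.29.

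**Figure D5:**
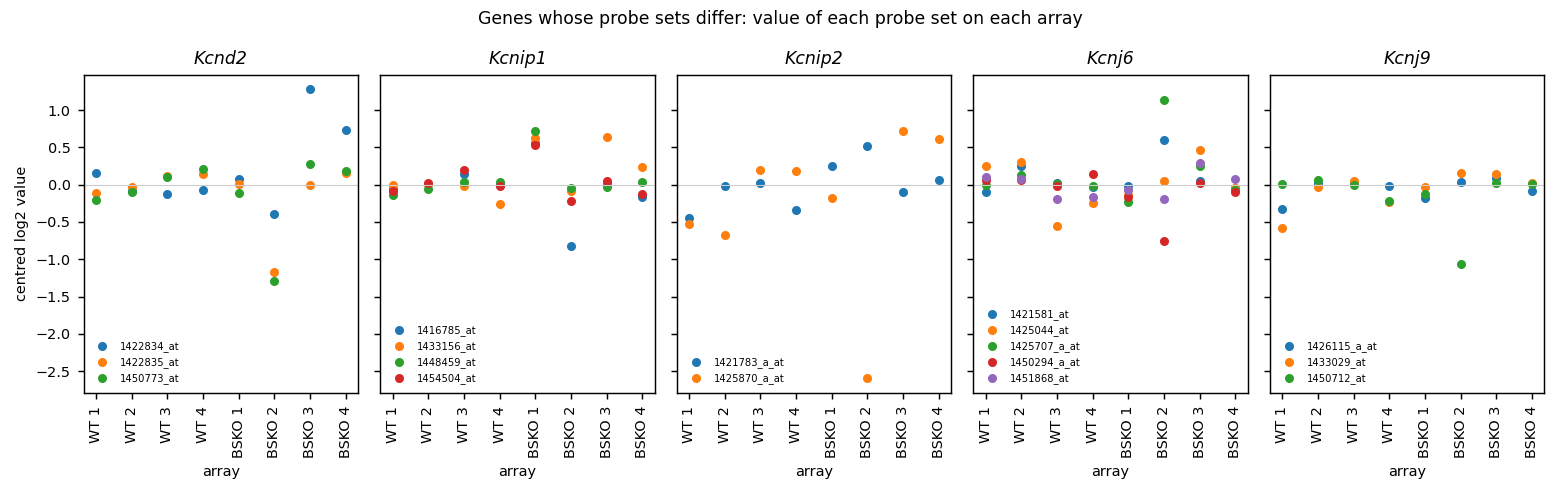
Centred log2 value of every probe set of Kcnd2, Kcnip1, Kcnip2, Kcnj6 and Kcnj9 on each of the 8 arrays. On BSKO 2 the probe sets of Kcnip2 lie at -2.60 and 0.51, while the 4 of Kcnip1 are all raised on BSKO 1.

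Genes that work with potassium channels were also examined, from a list of 35 partners of which 24 were measured. With 8 arrays 0 passed, and 11 differed upward and 13 downward, with a median of -0.02. Without BSKO 2, Gng2, a G protein gamma subunit, fell (-0.39, limma adjusted p = 0.0392, and -0.44 with 8 arrays, adjusted p = 0.139). Abcc8, the sulfonylurea receptor of ATP-sensitive channels, differed by 0.59 with 8 arrays (adjusted p = 0.257) and 0.42 without BSKO 2 (adjusted p = 0.0557). The sodium, potassium and chloride transporter Slc12a2 differed by -0.33 (adjusted p = 0.407). Of 34 sodium, calcium and HCN channel genes 0 passed with 8 arrays and 20 differed upward, with a median of 0.07. Without BSKO 2, Cacng4, which codes for a protein of the calcium channel gamma family, rose (0.82, adjusted p = 0.0300). Scn3a (0.47, adjusted p = 0.151) and Cacng1 (0.49, adjusted p = 0.223) did not pass with 8 arrays. The share called without BSKO 2 was 1 of 24 and 1 of 34 in these lists and 3 of 62 (4.84%) among the potassium channel genes. Over all genes it was 2.15%, with 1.39% called as lower and 0.758% as higher. The lists were not tested against each other.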

How the data were processed

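Whole-brain RNA of 4 WT and 4 BSKO mice was measured on 8 arrays. The authors processed them with RMA, per the submitters' processing notes, with its version not given in the sources used here, and deposited log2 values cover 22690 probe sets. Of these, 22689 have a median over the arrays within 1e-05 of 0, a centring that no label records and that removes the level. Tests left out 64 control probe sets. Of the 22626 tested, 20380 had 1 symbol in the platform annotation, 691 several and 1555 none or were not listed. Entrez numbers of all 62 members matched RefSeq, with no symbol changed.

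BSKO was set against WT by limma (version 3.58.1, R 4.3.3; lmFit, eBayes, two-sided, no covariate) per probe set and per gene mean, with Benjamini-Hochberg adjustment over the whole table and a threshold of 0.05. The same fit was run without BSKO 2. The labels call the arrays biological replicates. The scripts were tested on simulated data. Named with values per array and the full test are genes called in either fit and those whose genotypes did not overlap on 8 arrays. Named with fewer values are the 2 genes of each subfamily furthest up and the 2 furthest down, and genes whose probe sets span over 0.5. Of the partner and other channel lists, called members and those of smallest p are named. Marker lists are given by count and median, with their called members named, and not by the 3 of smallest p as planned. The array values of Kcna2, Kcnh1, Kcnj4 and Kcnk13, and the naming of Kcnma1 and of the genes with replicate gaps, were chosen after their values were seen. Members, lists and tests were chosen with earlier results of these data known. Alternatives were quantile normalization, centring of arrays, leaving out cross-hybridising probe sets, robust eBayes, array weights, a replicate block, replicates 1 and 2 against 3 and 4 as a term, a threshold of 0.10, the median of probe sets and leaving out each array. Dim probe sets could not be filtered, since the centring hides brightness. Scanner files and scan dates were not used here. Marker lists beside those in the report were of thalamic, cerebellar, cortical and general neurons, oligodendrocytes, astrocytes and vessels. None of them had a member called in either fit except the cerebellar list, with 1 of 8 lower, Neurod1 (-1.31, adjusted p = 0.0495 with 8 arrays, and -1.38, adjusted p = 0.0125, without BSKO 2). Their median differences with 8 arrays were -0.05, -0.08, -0.26, -0.13, -0.09, -0.17 and 0.06 in that order. Figures were drawn with matplotlib 3.10.9.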

Additional observations from a re-analysis of the deposited data

Results flagged for a closer look

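In 66 groups of 4 arrays (33 named genes in each genotype), 5 held an array far from the other 3 by Dixon's criterion. Chance alone meets it in about 1 of 20 groups picked without regard to their values. The 33 genes were named in part by 8-array differences and by calls without BSKO 2, which depend on that array. That rate therefore does not apply to them. BSKO 2 was that array for Kcna6 (1.99, others -0.04 to 0.06), Kcnj12 (2.43, others 0.02 to 0.16), Kcnj3 (0.34, others -0.44 to -0.32) and Kcnu1 (-1.88, others -0.15 to 0.01). For Kcnq5 it was WT 2 (-0.29, others -0.01 to 0.03).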

How the results depend on the processing

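With 8 arrays the count of channel probe sets and genes past the threshold, 0 and 0, moved with array weights to 15 and 10, and ran from 0 to 2 and from 0 to 3 when 1 array was left out, where BSKO 2 alone gave more than 0. Under the array weights BSKO 2 had a weight of 0.0456 and BSKO 4 one of 3.69. The 10 genes were Kcna4, Kcnab1, Kcnmb4, Kcnn3 and Kcnq5 as higher and Kcna3, Kcne4, Kcnj3, Kcnk13 and Kcnmb2 as lower. Without BSKO 2 the counts of 2 and 3 moved to 5 and 7 under a term that sets replicates 1 and 2 apart from 3 and 4, to 0 and 0 with the replicate block, to 1 probe set with quantile normalization and to 6 probe sets at a threshold of 0.10. They ran from 0 to 7 and from 0 to 8 when a further array was left out. The cause of these shifts was not tested. Same-numbered arrays share only a number: the correlation of their deviations was 0.0858, 0.0562, 0.14 and 0.129 for numbers 1 to 4. The differences of Kcna4, Kcna5, Kcne4, Kcnj12, Kcnj3, Kcnk3, Kcnmb2 and Kcnmb4 kept their direction under every alternative run. That of Kcna2 without BSKO 2 ran from -0.43 to 0.26. Of the values of the other 25 named genes over the alternatives, 53 moved by more than the SD of the 4 WT arrays and 347 did not with 8 arrays, and 22 and 328 without BSKO 2. A planned filter on brightness was not run, because centring removed the brightness. The number of arrays limits what can be detected.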
